A study of Arabidopsis thaliana with 4 samples.

Results

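The cysteine-rich receptor-like kinases of Arabidopsis thaliana are a large plant family. It is described here from 39 loci that were chosen by a list of locus names, with earlier results of these data known. These loci carry the names CRK2 to CRK42 with gaps. The deposited expression table of 24288 loci held 38 of them, and 34 reached at least 1 RPKM in at least 1 library. RPKM is a read count scaled by transcript length and by the size of the library. CRK33 is not analysed here, and CRK26, CRK30, CRK31 and CRK32 stayed under 1 RPKM in every library. The member just inside this limit was CRK27, with a highest value of 1.84 RPKM, and the one just outside was CRK32, with 0.567 RPKM. RNA came from seedlings of the Columbia ecotype after 12 days on Murashige and Skoog medium (3% sucrose) at 23 °C, with days of 16 h light and 8 h darkness. The genotypes were atprmt5, a mutant of the protein arginine methyltransferase PRMT5 (prmt5 in the descriptions), the mutant lines m90 and s215, and wild type, with 1 library each. The design text speaks of suppressors of atprmt5 mutants, and neither the alleles of m90 and s215 nor whether both keep the atprmt5 mutation is stated. Since no genotype was measured again, every difference below is one between libraries and has no replicate check and no p-value.

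A cysteine-rich receptor-like kinase has an extracellular part with the conserved cysteine-containing DUF26 domain, a single pass through the plasma membrane, and a serine/threonine kinase inside the cell. Members act in responses to pathogens, salicylic acid, abscisic acid and reactive oxygen species, and several associate with immune receptor complexes. Many members are encoded in tandem on chromosome 4, and the promoters of several hold W-boxes, the sites that WRKY transcription factors bind.

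All 39 loci matched a CRK name in RefSeq (assembly TAIR10.1), and 35 of them lie on chromosome 4. The main tandem array holds 19, from CRK5 to CRK24, within 74.2 kb (chromosome 4, 12117491 to 12191704), 8 on the plus and 11 on the minus strand. CRK36 to CRK40 form a cluster of 5 over 61.2 kb, CRK30 to CRK34 one of 5 loci over 26.3 kb. CRK27 to CRK29 are grouped as one of 3 over 86.1 kb, although CRK27 (11319139 to 11321679) lies apart from CRK28, which begins at 11398857. CRK2 and CRK3 are neighbours on chromosome 1. CRK4, CRK25, CRK26, CRK41 and CRK42 stand apart from these groups. Annotated transcripts had 4 to 9 exons, with a median of 7, and coding sequences ran over 1587 to 3132 bases.

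The promoter windows shown belong to CRK14, CRK10 and CRK40, which passed 2-fold in 4 of the 5 comparisons made below, and to CRK42, which passed it in 3 and always as the lower one. Each runs from 250 bases before to 50 bases after the annotated gene start, 5′ to 3′ on the gene's strand, in RefSeq TAIR10.1. Capitals mark the W-box core TTGAC, or GTCAA where it lies on the opposite strand. CRK14 is at chr4:12156832-12157131 (minus strand), CRK10 at chr4:12137745-12138044 (plus), CRK40 at chr4:2288366-2288665 (plus) and CRK42 at chr5:16151272-16151571 (plus).
CRK14: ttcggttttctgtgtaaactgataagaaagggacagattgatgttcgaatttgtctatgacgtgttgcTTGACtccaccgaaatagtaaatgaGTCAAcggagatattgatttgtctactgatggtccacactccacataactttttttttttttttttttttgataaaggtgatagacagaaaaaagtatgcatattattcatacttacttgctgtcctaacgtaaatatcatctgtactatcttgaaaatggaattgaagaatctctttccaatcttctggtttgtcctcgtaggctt
CRK10: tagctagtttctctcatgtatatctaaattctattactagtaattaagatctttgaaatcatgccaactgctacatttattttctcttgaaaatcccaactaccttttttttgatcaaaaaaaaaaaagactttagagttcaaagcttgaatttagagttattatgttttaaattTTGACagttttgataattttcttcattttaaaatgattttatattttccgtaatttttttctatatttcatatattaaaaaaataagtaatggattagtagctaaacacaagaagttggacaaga
CRK40: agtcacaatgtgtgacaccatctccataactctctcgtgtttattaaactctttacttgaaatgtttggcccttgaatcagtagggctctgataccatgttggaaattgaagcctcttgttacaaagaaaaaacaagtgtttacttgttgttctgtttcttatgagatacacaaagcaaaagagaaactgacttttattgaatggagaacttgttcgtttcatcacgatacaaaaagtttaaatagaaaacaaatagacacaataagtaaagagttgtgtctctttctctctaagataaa
CRK42: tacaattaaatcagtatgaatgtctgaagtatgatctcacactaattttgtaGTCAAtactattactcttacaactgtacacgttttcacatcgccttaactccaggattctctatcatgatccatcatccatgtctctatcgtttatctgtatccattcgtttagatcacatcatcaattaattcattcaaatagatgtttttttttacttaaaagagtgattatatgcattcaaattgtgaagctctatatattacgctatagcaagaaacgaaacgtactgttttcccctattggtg

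The CRK14 window held 2 cores, those of CRK10 and CRK42 held 1 each, and the CRK40 window held none. Over all 39 members, 30 windows (76.9%) held at least 1 core, against 50.5% of 27431 windows of protein-coding nuclear genes. At least 3 cores were found in 9 members (23.1%), against 4.86% of all windows. The stricter boxes TTGACC and TTGACT, which contain the core, were in 64.1% of member windows and 32.4% of all windows. CRK11, a member with an early described response to oxidative stress, had the most, with 7 cores. Members are related genes, many in tandem, so their windows are not independent of each other. The CRK16 window lies within the CRK17 gene, and the CRK28 window within the CRK29 gene. A match to these letters is a description of the sequence and not evidence of binding.

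Some members resemble each other closely, which bears on single values because the treatment of reads with several matches is not given in the sources used here. The highest coding identity was 87.3% between CRK19 and CRK20, followed by 86.2% between CRK39 and CRK40 and 85.7% between CRK28 and CRK29. In 14 of 39 members no 50-base stretch of exon occurred a further time in the genome. In 6 members more than 5% of stretches did, with 22% in CRK6, 16.5% in CRK8, 16.2% in CRK22, 15.4% in CRK13, 6.72% in CRK20 and 5.38% in CRK39. Reads from other copies could affect the values of these members, by an amount that these percentages do not give. CRK16 and CRK17 overlap by 1190 bases on the same strand, CRK28 and CRK29 by 470 bases on the same strand, and CRK10 and CRK11 by 32 bases on opposite strands.

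Scaling totals recovered from the values were 17901204 reads in atprmt5, 17802377 in m90, 17378981 in s215 and 17350612 in wild type. The s215 library stood apart from the others in its tissue markers, which go against its label of seedlings as far as roots are concerned. Which tissue or plants it came from could not be checked here, and every s215 result below is one of the library labelled s215. The 7 root markers, of which PYK10 is the most abundant, summed to 1535 RPKM in atprmt5, 1406 in m90, 6.04 in s215 and 1594 in wild type. In s215, CASP1 and EXPA7 of these had 0 reads, 6 of 7 were at least 2-fold below wild type, and NRT2.1 was above it. Of all 24288 loci, 19.6% were at least 2-fold lower and 10.4% higher in s215 than in wild type. The 7 green shoot markers summed to 18397, 19117, 5752 and 17759 RPKM in the same order of libraries, and the 3 dry seed markers to 37.7, 0.157, 0.289 and 163 RPKM. In s215, 5 of the 7 green shoot markers were at least 2-fold below wild type, and GLK1 was above it (158 against 66.9 RPKM). In atprmt5, 3 of the 7 root markers and none of the green ones were at least 2-fold above wild type. Below it were 2 of the 3 seed markers in atprmt5 and all 3 in m90. Of all loci, 1.50% were higher and 2.75% lower in atprmt5 than in wild type, and 2.25% were lower in m90. In bulk RNA, fewer cells of a type and less RNA per cell cannot be told apart. The part of these markers in the results below was not tested.

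Members were expressed at modest levels in 3 of the 4 libraries and at much higher levels in s215. The 38 loci summed to 184 RPKM in atprmt5, 209 RPKM in m90, 824 RPKM in s215 and 180 RPKM in wild type. Their median level was 0.861, 0.757, 9.45 and 0.390 RPKM in the same order, while the median of all loci was 6.09, 5.97, 5.08 and 6.26 RPKM. Members at 1 RPKM or more numbered 18 in atprmt5, 18 in m90, 32 in s215 and 17 in wild type. CRK2 and CRK10 were the most abundant members in atprmt5 and wild type, CRK10 in m90 and CRK4 in s215. The ranks of member levels correlated at a Spearman rho of 0.93 between atprmt5 and wild type and 0.89 between m90 and wild type, but 0.24 between s215 and wild type (38 loci). Over all 24288 loci the values were 0.97, 0.97 and 0.84. These correlations are across genes, which are not independent replicates.

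**Figure D1:**
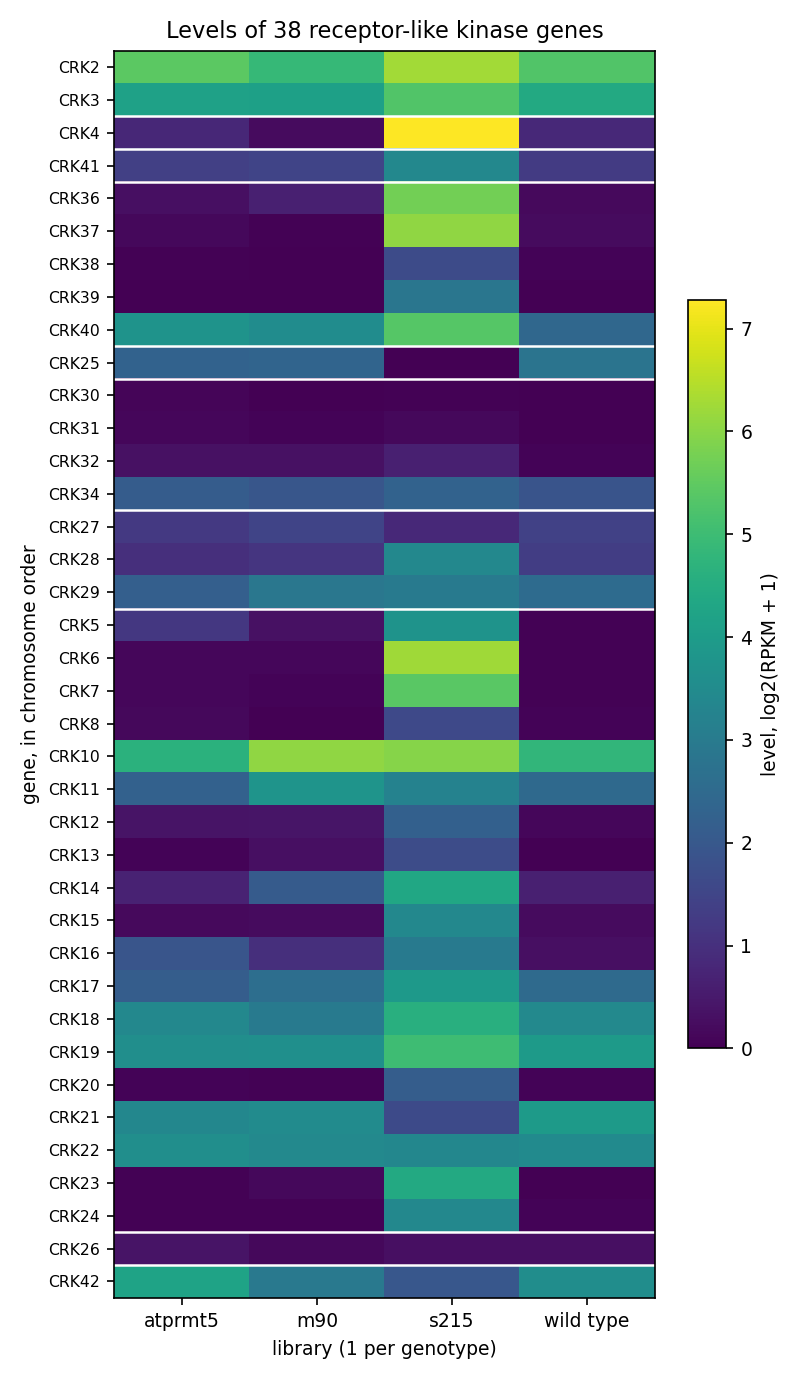
Level of the 38 measured members as log2(RPKM + 1), by colour, in the atprmt5, m90, s215 and wild-type libraries, with genes in chromosome order and white lines between clusters. Most rows are brightest in s215, where members at 1 RPKM or more numbered 32, and CRK21, CRK22, CRK25, CRK27 and CRK42 are lowest there.

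Differences were taken as the log2 ratio of (RPKM + 1), a scale that shrinks the ratios of weakly expressed genes. A difference of at least 2-fold on this scale was counted. A ratio of RPKM is followed by its 95% exact interval, which covers counting error only. In 14 of the 34 members the limit of 1 RPKM was reached in s215 alone, and such members had to be higher there. Counts are therefore also given for all 38 measured members against all loci of the table.

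In atprmt5 against wild type, 3 members were at least 2-fold higher and none lower. Those 3 were CRK5, CRK16 and CRK40. Of all 19867 loci at 1 RPKM or more in any library, 1.83% were higher and 3.36% lower, and of all 24288 loci 1.50% and 2.75%. The median log2 ratio of the 34 members was 0.00, as was that of all those loci. The other 31 had log2 ratios between -0.58 and 0.63 in this pair. With 5 RPKM added in place of 1, none of the 3 reached 2-fold, and CRK40 came closest with a log2 ratio of 0.89.

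CRK5 (AT4G23130), a kinase with roles in abscisic acid responses and cell death whose promoter is bound by WRKY18, WRKY40 and WRKY60, had 1.28 RPKM in atprmt5, 0.263 RPKM in m90, 12.3 RPKM in s215 and 0.0269 RPKM in wild type. It was nearly silent in wild type, with about 1 read, and higher in each of the other libraries. The ratio of atprmt5 to wild type was 47.4 (8.66 to 2029). CRK16 (AT4G23240) had 2.78 RPKM in atprmt5, 0.970 RPKM in m90, 6.87 RPKM in s215 and 0.219 RPKM in wild type, a 12.7-fold excess in atprmt5 (4.83 to 49.8). Its m90 value lay between those of atprmt5 and wild type, at 0.349 of atprmt5 (0.198 to 0.607), as the m90 value of CRK5 did at 0.206 of atprmt5 (0.10 to 0.413). Neither of these m90 differences reached 2-fold once 1 RPKM was added to both values. CRK16 overlaps CRK17 by 1190 bases on the same strand, and how reads in the overlap were counted is not given.

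CRK40 (AT4G04570) was the best-measured of the 3, at 12.3 RPKM in atprmt5, 10.6 RPKM in m90, 39.6 RPKM in s215 and 4.36 RPKM in wild type. All 3 mutant libraries lay above wild type, by 2.82-fold in atprmt5 (2.38 to 3.37), 2.43-fold in m90 (2.04 to 2.91) and 9.08-fold in s215 (7.78 to 10.7). The m90 level was 0.862 of that in atprmt5 (0.757 to 0.980). CRK40 was the sole member past 2-fold above wild type in all 3 mutant libraries. Its closest relative CRK39 had 0 reads in atprmt5, m90 and wild type and 6.29 RPKM in s215.

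Among members under 2-fold in this pair, CRK42 (AT5G40380) had 17.5 RPKM in atprmt5 against 10.9 RPKM in wild type, 1.60-fold (1.40 to 1.84). CRK21 (AT4G23290) had 9.35 RPKM in atprmt5 against 14.5 RPKM in wild type, a ratio of 0.645 (0.566 to 0.738). CRK25 (AT4G05200) had 3.84 RPKM in atprmt5 against 6.02 RPKM in wild type, a ratio of 0.638 (0.511 to 0.786). The most abundant member in both libraries, CRK2 (AT1G70520), which phosphorylates the NADPH oxidase RBOHD, had 42.4 RPKM in atprmt5 against 38.7 RPKM in wild type, 1.09-fold (1.02 to 1.17). The companion lists were chosen with earlier results of these data known. Of all 24288 loci, 1.50% were higher and 2.75% lower in this pair. The immune receptor complex and oxidative burst list had none of 18 higher and 1 lower in atprmt5, the co-receptor gene SOBIR1 (65.1 against 137 RPKM). The salicylic acid list had 2 of 15 higher, PR1 and PR5, and 1 lower, NPR3. Of the 3 WRKY genes whose products bind the CRK5 promoter none was higher and WRKY40 was lower, at 7.58 RPKM in atprmt5 against 172 RPKM in wild type (log2 ratio -4.33). WRKY60 was just under 2-fold above wild type on this scale, at 13.8 RPKM in atprmt5 against 6.42 RPKM. WRKY18 was at 16.5 RPKM in atprmt5 against 19.5 RPKM in wild type.

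In m90 against atprmt5, 3 members were at least 2-fold higher, CRK10, CRK11 and CRK14, and 1 was lower, CRK42. Of loci at 1 RPKM or more in any library 3.58% were higher and 2.37% lower, and of all loci 2.93% and 1.94%. The member median was 0.01 and that of all loci -0.04. Against wild type, m90 had the same 3 and CRK40 higher and none lower, with 2.61% of loci at 1 RPKM or more higher and 2.75% lower (2.13% and 2.25% of all loci), a member median of 0.02 and a median of -0.04 for all loci. With 5 RPKM added in place of 1, CRK10 alone stayed past 2-fold in each m90 comparison (log2 ratios 1.29 and 1.15), and CRK42 stood at -0.95 against atprmt5. The m90 comparisons share libraries with the atprmt5 one.

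CRK10 (AT4G23180), also named RLK4, had 65.8 RPKM in m90, 24.0 RPKM in atprmt5, 61.3 RPKM in s215 and 26.9 RPKM in wild type. It was high in m90 and s215 and low in atprmt5 and wild type. The ratio of m90 to atprmt5 was 2.74 (2.52 to 2.98) and that of m90 to wild type 2.45 (2.25 to 2.66). Its neighbour CRK11 (AT4G23190), also named RLK3, had 12.5 RPKM in m90, 3.76 RPKM in atprmt5, 8.43 RPKM in s215 and 4.65 RPKM in wild type. Its libraries stood in the same order, with ratios of 3.31 for m90 to atprmt5 (2.71 to 4.04) and 2.68 for m90 to wild type (2.22 to 3.23). The transcripts of these 2 genes run towards each other, and whether strand was used in counting is not given; their overlap is 32 bases.

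CRK14 (AT4G23220) had 3.29 RPKM in m90, 0.626 RPKM in atprmt5, 19.1 RPKM in s215 and 0.551 RPKM in wild type. The m90 level was 5.26-fold above atprmt5 (3.34 to 8.79) and exceeded wild type 5.97-fold (3.64 to 10.2). CRK42 differed in the opposite direction, with 6.65 RPKM in m90, 17.5 RPKM in atprmt5, 2.95 RPKM in s215 and 10.9 RPKM in wild type. It was highest in atprmt5 and lowest in s215, and m90 stood at 0.381 of atprmt5 (0.325 to 0.447) and 0.610 of wild type (0.514 to 0.728).

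**Figure D2:**
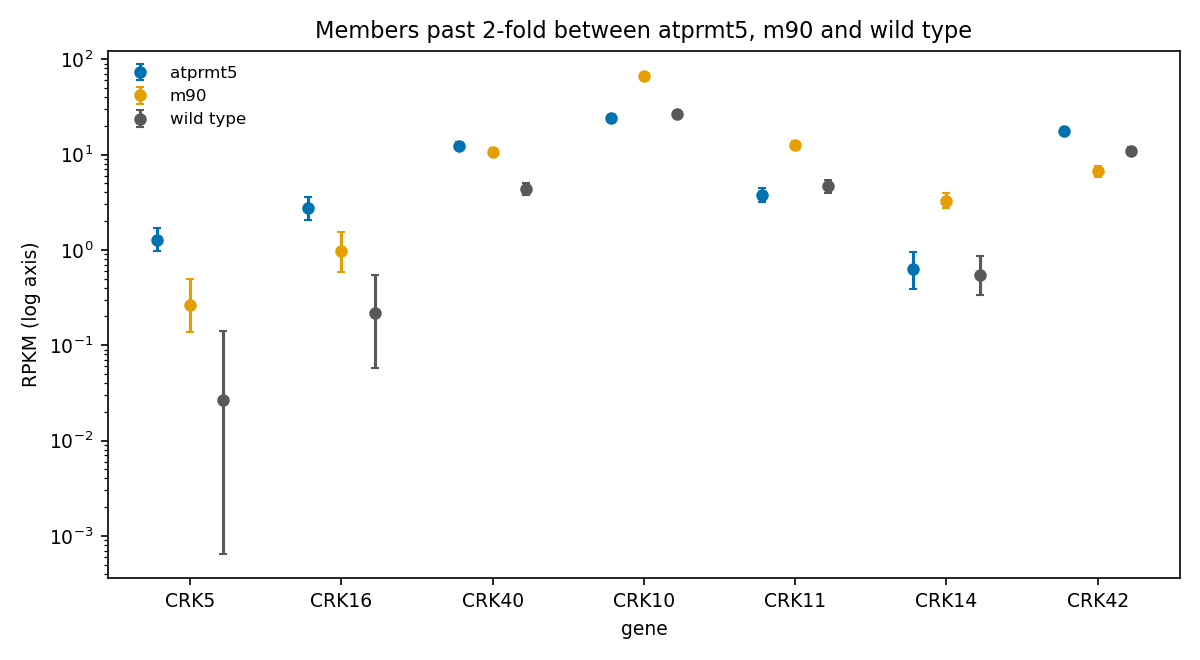
RPKM on a log axis, with 95% exact Poisson intervals for counting error as bars, of the 7 members past 2-fold in any comparison among atprmt5, m90 and wild type. CRK10, CRK11 and CRK14 are highest in m90, CRK5, CRK16 and CRK42 in atprmt5, and CRK40 is close in atprmt5 and m90 and lower in wild type.

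Lower values with wide intervals were also seen for CRK4, at 0.161 RPKM in m90, 0.743 RPKM in atprmt5 and 0.787 RPKM in the wild-type library, a ratio of 0.217 to atprmt5 (0.0775 to 0.474). CRK36, which phosphorylates the kinase BIK1, had 0.544 RPKM in m90, 0.226 RPKM in atprmt5 and 0.132 RPKM in the wild-type library, 2.41-fold above atprmt5 (1.09 to 6.06). Neither reached 2-fold after 1 RPKM was added. Of all 24288 loci, 2.93% were higher and 1.94% lower in m90 than in atprmt5, and the companion lists were chosen with earlier results known. In the immune receptor complex and oxidative burst list, 4 of 18 genes were higher in m90 than in atprmt5 and 1 lower. The 4 were SOBIR1 (309 against 65.1 RPKM), the calcium-dependent kinase gene CPK28 (193 against 47.2), the MAP kinase gene MPK3 (179 against 46.3) and RBOHD (60.1 against 21.9), and the lower gene was the flagellin receptor FLS2 (3.57 against 8.96 RPKM), named after its values were seen. Of the same 3 WRKY genes, WRKY40 alone was past 2-fold in this pair, at 469 RPKM in m90 and 7.58 RPKM in atprmt5 (172 RPKM in wild type). CRK5 itself stood at 0.263 RPKM in m90 and 1.28 RPKM in atprmt5 (0.0269 RPKM in wild type). A link between the levels of these WRKY genes and CRK5 was not tested. In the salicylic acid list 3 of 15 were higher and 1, PR1, was lower in m90. The plasmodesmata-located proteins PDLP1 to PDLP8, which share the DUF26 domain without the kinase, had none of 8 past 2-fold in atprmt5 against wild type, in m90 against atprmt5 or in m90 against wild type.

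In s215 against wild type, 24 of 34 members were at least 2-fold higher and 3 lower, where 12.8% of loci at 1 RPKM or more were higher and 23.9% lower. Over all 38 measured members, 24 (63.2%) were higher and 3 (7.89%) lower, against 10.4% and 19.6% of all 24288 loci. The members were chosen with earlier results of these data known, which limits what these shares can show. The median log2 ratio was 1.87 for the 34 and 1.56 for the 38, against -0.16 and -0.09 for all loci under the same limits. Among the 20 members that reached 1 RPKM without s215, 10 were higher and 3 lower (median log2 ratio 1.01), against 11.1% and 24.6% of all loci under that limit. Grouping by wild-type level sets no limit on s215. Of 14 members under 0.1 RPKM in wild type 11 were higher in s215, against 7.67% of 2724 loci at that level, and of 7 members between 0.1 and 1 RPKM 6 were, against 11.4%. Of 10 members between 1 and 10 RPKM 5 were higher, against 11.7%, and of 7 members between 10 and 100 RPKM 2 were, against 10.2%.

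Against atprmt5, s215 had 25 of 34 members higher and 3 lower, with 12.7% of loci at 1 RPKM or more higher and 22.8% lower. The 25 were the 24 above and CRK3, at 38.2 RPKM in s215 and 17.1 RPKM in atprmt5, 2.24-fold (2.06 to 2.43). CRK3 had 20.3 RPKM in wild type, and s215 stood 1.88-fold above it (1.74 to 2.04). CRK2 was just under the limit in both pairs, at 76.2 RPKM in s215, 1.80-fold its atprmt5 level (1.70 to 1.91) and 1.97-fold its wild-type level (1.85 to 2.09). Over all 38 members the shares were 65.8% and 7.89%, against 10.4% and 18.6% of all loci, and among the 20 members above 11 were higher and 3 lower, against 11.1% and 23.4%. The member median was 1.62 and that of all loci -0.14. With the median ratio of all loci set to 0, CRK2 and CRK3 also passed 2-fold against wild type, at log2 ratios of 1.12 and 1.04. The s215 library is common to both comparisons.

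**Figure D3:**
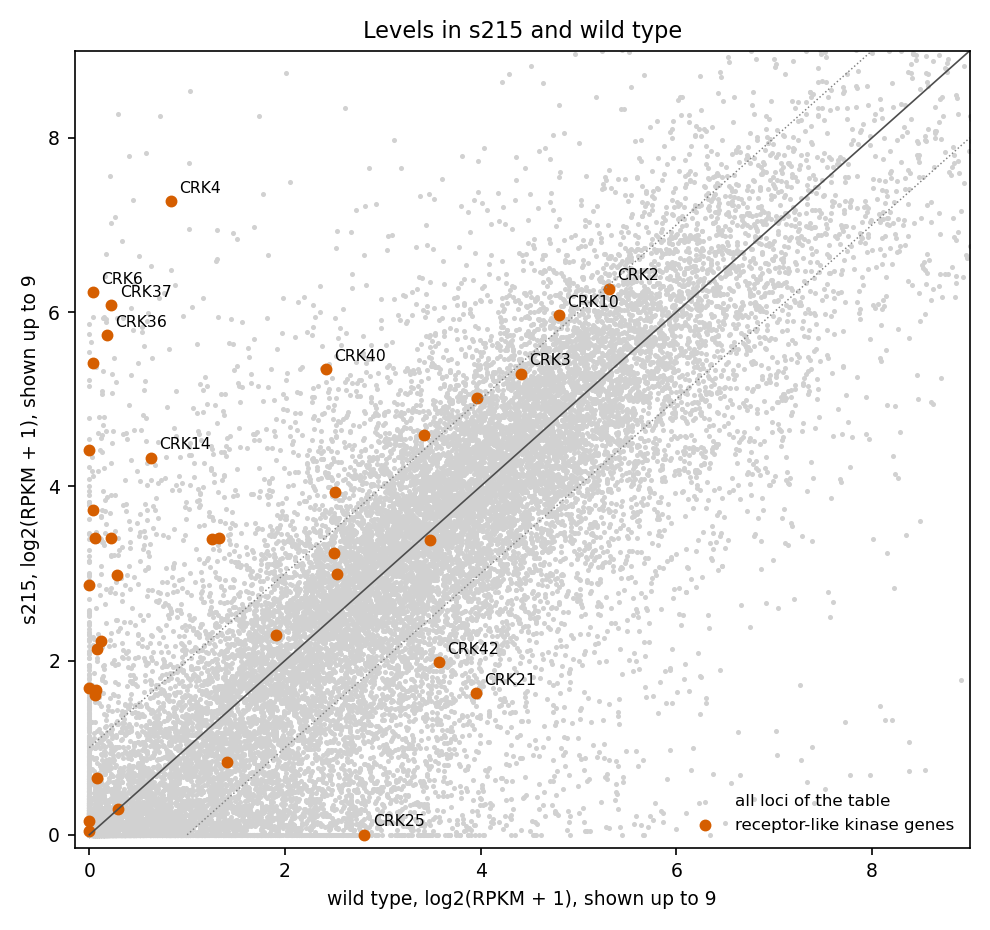
Level in s215 against level in wild type as log2(RPKM + 1), for the 38 members (orange) and all loci of the table (grey), with a line of equality and dotted lines at 2-fold; axes end at 9. Members low in wild type, such as CRK4, CRK6, CRK36 and CRK37, lie far above the line, and CRK21, CRK25 and CRK42 lie below the lower dotted line.

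CRK4 (AT3G45860), a member that associates with the flagellin receptor FLS2 and causes cell death when overexpressed, had the highest level of the family in any library. It had 154 RPKM in s215, 0.743 RPKM in atprmt5, 0.161 RPKM in m90 and 0.787 RPKM in wild type, 195-fold above wild type (140 to 280). It is the sole member on chromosome 3. The 3 measured loci on each side of it had log2 ratios between -0.58 and 0.56 in s215 against wild type, so the difference was not shared by its neighbours.

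At one end of the tandem array lie CRK6 and CRK7, which protect against oxidative damage from outside the cell. CRK6 (AT4G23140) had 73.9 RPKM in s215, 0.10 RPKM in atprmt5, 0.101 RPKM in m90 and 0.0259 RPKM in wild type, where it rested on about 1 read. CRK7 (AT4G23150) had 41.6 RPKM in s215, 0.0833 RPKM in atprmt5, 0.0559 RPKM in m90 and 0.0287 RPKM in wild type. Both were nearly silent outside s215, with ratios to atprmt5 of 735 (287 to 2701) for CRK6 and 499 (190 to 2693) for CRK7. Next to them CRK5 was at 12.3 RPKM in s215, 9.60-fold above atprmt5 (7.15 to 12.9), and CRK8 at 2.03 RPKM, against 0.116, 0.0144 and 0.0422 RPKM in atprmt5, m90 and wild type.

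At the other end, CRK23 (AT4G23310) had 20.3 RPKM in s215, 0.0224 RPKM in atprmt5, 0.113 RPKM in m90 and 0 in wild type, at least 345-fold higher than wild type against a floor of 3 reads. CRK24 had 9.63 RPKM in s215, 0.0204 RPKM in atprmt5, 0.0351 RPKM in m90 and 0.0439 RPKM in wild type, a ratio to wild type of 220 (55.9 to 12421). These are the last genes of the array and were, like CRK6 and CRK7, close to 0 except in s215. CRK20, a member induced by salicylic acid, had 3.40 RPKM in s215, 0.0567 RPKM in atprmt5, 0.0285 RPKM in m90 and 0.0585 RPKM in wild type. Its near-copy CRK19 was expressed in all libraries, at 31.3 RPKM in s215, 11 RPKM in atprmt5, 11.4 RPKM in m90 and 14.6 RPKM in wild type, 2.14-fold above wild type in s215 (1.94 to 2.37).

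Members in the middle of the array differed in the same direction. CRK12 was at 3.69 RPKM in s215 and 0.0888 RPKM in wild type, 41.5-fold (14.3 to 139). CRK13, whose overexpression raises salicylic acid, was at 2.21 RPKM in s215 and 0 in wild type, at least 31.3-fold higher. CRK14 was at 19.1 RPKM in s215, 34.7-fold above wild type (21.9 to 57.6), and CRK15 at 9.57 RPKM in s215 and 0.162 RPKM in wild type, 59.0-fold (26.5 to 194). CRK16 stood 31.4-fold above wild type in s215 (12.4 to 121), although only 2.47-fold above atprmt5 (1.79 to 3.47). CRK17, also named EMB1290, was at 14.3 RPKM in s215 and 4.71 RPKM in wild type, 3.02-fold (2.53 to 3.61), and CRK18 at 23.0 and 9.72 RPKM, 2.37-fold (2.08 to 2.70). CRK10 was 2.28-fold above wild type (2.1 to 2.48), and CRK11, at 1.81-fold (1.48 to 2.21), stayed under the limit.

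In all, 16 of the 19 array members were higher in s215 than in wild type and 1 was lower, with a median log2 ratio of 2.05, against 10.4% of all loci higher, 19.6% lower and an all-locus median of -0.09. CRK6, CRK7, CRK8, CRK12, CRK13, CRK15, CRK20, CRK23 and CRK24 of these reached 1 RPKM in s215 alone. CRK21 was the lower one, at 2.09 RPKM in s215, 9.35 RPKM in atprmt5, 10.5 RPKM in m90 and 14.5 RPKM in wild type, and s215 stood at 0.144 of wild type (0.112 to 0.181). CRK22, directly beside it, hardly differed between libraries, with 9.42 RPKM in s215, 11.2 RPKM in atprmt5, 9.84 RPKM in m90 and 10.2 RPKM in wild type, 0.919 of wild type in s215 (0.803 to 1.05). The array thus did not differ as a single block. The 3 nearest measured loci on each side of the array had log2 ratios between -0.43 and 0.93. Inside it, EP1 (AT4G23170), for which RefSeq also gives the name CRK9 and which is not on the list, had 23.6 RPKM in s215 and 2.27 RPKM in wild type. AT4G23215 had 17.6 RPKM in s215 and 0 in wild type, and AT4G23205 had 0 in s215 and 0.118 RPKM in wild type.

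**Figure D4:**
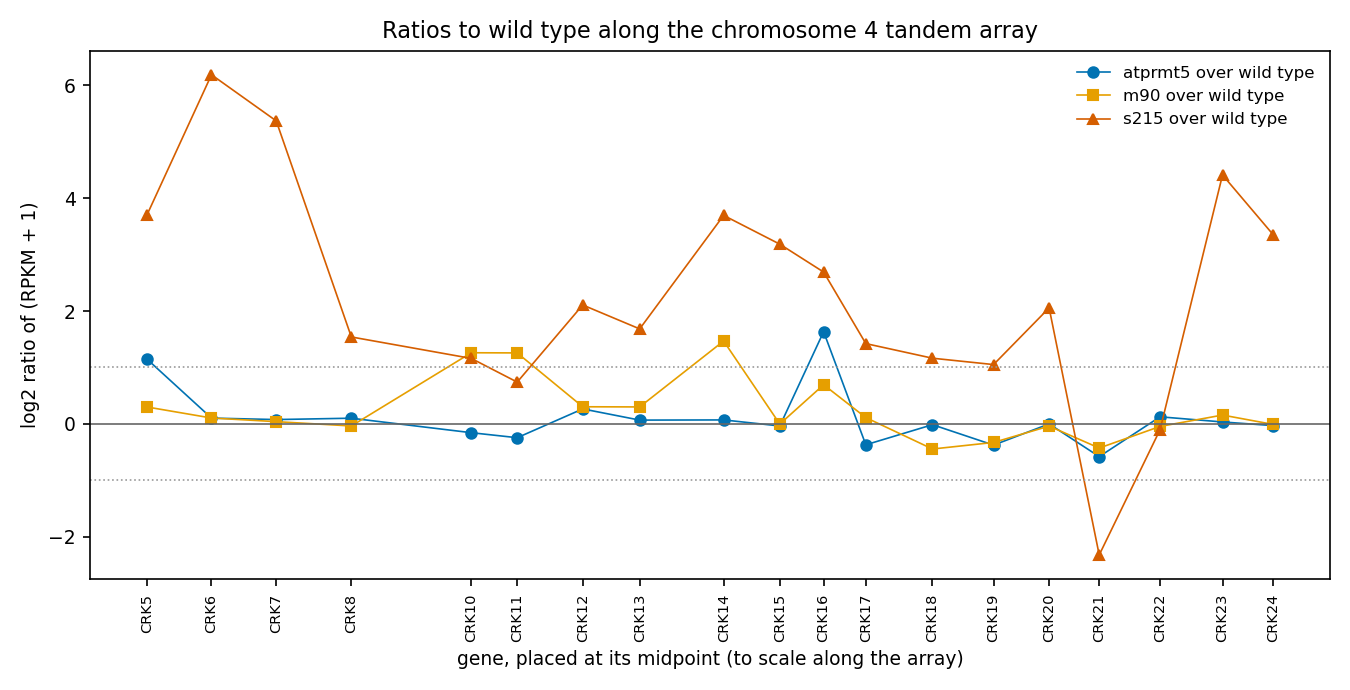
Log2 ratio of (RPKM + 1) to wild type in the atprmt5, m90 and s215 libraries for the 19 array members, placed by gene midpoint, with dotted lines at 2-fold. The s215 line is above 2-fold for 16 members, near 0 at CRK22 and at -2.33 at CRK21, while m90 passes 2-fold at CRK10, CRK11 and CRK14 and atprmt5 at CRK5 and CRK16.

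All 5 members of the second cluster, CRK36 to CRK40, passed 2-fold above wild type in s215 (median log2 ratio 2.92). In the same pair 10.4% of all 24288 loci passed 2-fold upwards and 19.6% downwards (all-locus median -0.09). CRK36, CRK37, CRK38 and CRK39 reached 1 RPKM in s215 alone. CRK36 (AT4G04490) had 52.3 RPKM in s215, 0.226 RPKM in atprmt5, 0.544 RPKM in m90 and 0.132 RPKM in wild type, 396-fold above wild type (176 to 1269). CRK37 (AT4G04500) had 66.5 RPKM in s215, 0.110 RPKM in atprmt5, 0.0275 RPKM in m90 and 0.170 RPKM in wild type, 392-fold above wild type (161 to 1162). CRK38 reached 2.17 RPKM in s215 against 0.0519 RPKM in wild type, and CRK39 was at least 76.2-fold higher than wild type. CRK40 alone in this cluster was expressed above 1 RPKM in every library. The loci between these members, AT4G04520, AT4G04525 and AT4G04560, were at 0 in wild type and at most at 0.214 RPKM in s215.

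Of the other clusters, only that of CRK27 to CRK29 held a member past 2-fold in s215 against wild type. CRK28 (AT4G21400), which associates with the co-receptor BAK1, had 9.59 RPKM in s215, 0.980 RPKM in atprmt5, 1.18 RPKM in m90 and 1.51 RPKM in wild type, 6.37-fold above wild type (4.73 to 8.59). Its partner and near-copy CRK29 had 6.95 RPKM in s215, 3.64 RPKM in atprmt5, 6.39 RPKM in m90 and 4.79 RPKM in wild type, 1.45-fold above wild type (1.17 to 1.79). CRK27, which lies apart from CRK28 and CRK29, had 0.782 RPKM in s215 and 1.65 RPKM in wild type. Its ratio of 0.475 (0.296 to 0.769) did not reach 2-fold after 1 RPKM was added. In the CRK30 to CRK34 cluster, CRK34 was the sole member above 1 RPKM, at 3.92 RPKM in s215, 3.37 RPKM in atprmt5, 2.82 RPKM in m90 and 2.74 RPKM in wild type. CRK41 (AT4G00970) had 9.49 RPKM in s215, 1.62 RPKM in atprmt5, 1.80 RPKM in m90 and 1.39 RPKM in wild type, 6.84-fold above wild type (5.13 to 9.33).

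A trio of members was lower in s215 than in wild type, CRK21, CRK25 and CRK42. CRK25 (chromosome 4, 2679723 to 2682384, minus strand) had 0 reads in s215, with 3.84 RPKM in atprmt5, 4.12 RPKM in m90 and 6.02 RPKM in wild type, and was at least 73.5-fold lower than wild type. It was 1 of 115 loci at 0 in s215 and at 3 RPKM or more in each other library, and no locus was at 0 in this way in any of the others. ATK5, a kinesin gene that overlaps CRK25 on the opposite strand, was also low, at 0.404 RPKM in s215 and 14.7 RPKM in wild type. CRK42, at 2.95 RPKM in s215, stood at 0.270 of wild type (0.212 to 0.340). The root markers given above were low in the same library, and their part in these 3 values was not tested.

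Transcripts of salicylic acid synthesis and output were high in s215 along with the kinases. Of 15 genes on that list 14 were at least 2-fold above wild type and none below, with a median log2 ratio of 2.70. The share over all loci was 10.4% higher and 19.6% lower, and the lists were chosen with earlier results of these data known. PR1 was at 4144 RPKM in s215 and 1.21 RPKM in wild type, PR2 at 830 and 0.554 RPKM, PR5 at 1699 and 2.59 RPKM, and the regulator gene SARD1 at 79.2 and 0.375 RPKM. Of 18 immune receptor complex and oxidative burst genes 11 were past 2-fold above wild type and none below it (median 1.26). The 4 with the largest ratios were the kinase gene FRK1 (11.8 against 0.429 RPKM), the callose synthase gene CALS1 (71.9 against 8.38 RPKM), the co-receptor gene BKK1 (16.5 against 1.59 RPKM) and FLS2 (31.4 against 4.74 RPKM). WRKY18 and WRKY60 were higher, at 220 against 19.5 RPKM and 43.2 against 6.42 RPKM, and WRKY40 was lower, at 57.3 against 172 RPKM.

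Of the 8 PDLP genes, which encode DUF26 proteins without a kinase, 1 was higher and 5 were lower in s215 than in wild type, with a median log2 ratio of -1.25. Of all loci 10.4% were higher and 19.6% lower in this pair, so lower values were the more common ones in general. The higher one was PDLP5, which limits plasmodesmal traffic in salicylic acid responses, at 15.7 RPKM in s215 and 3.62 RPKM in wild type. The lower ones included PDLP2 (1.36 against 8.44 RPKM), PDLP3 (1.97 against 12.2 RPKM) and PDLP7 (0.336 against 2.94 RPKM).

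The s215 values were also grouped by the W-box cores in the windows described above. Over all loci, which were not split by cores, 10.4% were higher and 19.6% lower in s215 than in wild type, with a median log2 ratio of -0.09. Of 9 measured members with none, 4 were higher and 1 lower than wild type in s215, with a median log2 ratio of 0.96. Of 13 with 1 core 8 were higher and 1 lower (median 1.16), of 7 with 2 cores 6 were higher and 1 lower (median 3.19), and of 9 with 3 or more 6 were higher and none lower (median 1.42). The groups are small, and a link between cores and levels was not tested.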

How the data were processed

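RNA was measured in 4 seedling libraries, 1 for each genotype, grouped by the genotype label. Trizol was used to extract the RNA, and the libraries are described as strand-specific and made by a SMART method, per the labels' protocols. TopHat2 2.0.11 and genome build TAIR10 are named in the submitters' processing notes. The authors deposited RPKM values in 1 table of 24288 loci. Not given in the sources used here: the counting program, strand setting, treatment of multiply mapped reads and read length.

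Each library's RPKM for 1 read was taken from the commonest product of RPKM and annotated transcript length. Reads of a member were estimated from this and its shortest annotated transcript, which gives the fewest reads and the widest intervals; they are approximate. Ratio intervals are 95% Clopper-Pearson intervals conditional on the reads of both libraries. They cover counting error only, because PCR copies are not separate molecules and plants vary. With 0 reads in one library, folds are bounds against 3 reads in that library, and no fold is given when both libraries have 3 reads or fewer.

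The 5 comparisons were made in log2(RPKM + 1) over loci of at least 1 RPKM in any library, with no test. Every member past 2-fold in any comparison was to be named, and up to 4 genes of each companion list by size of ratio. Members and lists were chosen with earlier results of these data known. Promoters, exons and coding sequences came from RefSeq TAIR10.1, whose nuclear chromosomes are taken as those of TAIR10. Coding identity is matches over the longer sequence in a global alignment (Biopython 1.88). The calculation (Python 3.11.15, scipy 1.17.1) was tested on simulated data. Alternatives were pseudocounts of 0.1 and 5, other limits on low values, other scalings and leaving out members with close copies.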

Additional observations from a re-analysis of the deposited data

How the results depend on the processing

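No paired analysis was possible because each genotype has 1 library, and for the same reason no replicate could be left out. Leaving out members by protein identity was not run, as no protein table was used; coding identity took its place. That setting, the one on repeated stretches and the limit on low values without s215 were added after seeing the data. Of 135 recomputed counts and medians 115 kept their value within 1.5-fold or 0.1 log2, 20 moved, and no median of at least 1 changed sign. The cause was not tested, except that the pseudocount acts on low values by construction.

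With a pseudocount of 5, members higher in atprmt5 than wild type numbered 0 (reported 3). Those higher in m90 numbered 1 against wild type (reported 4) and 1 against atprmt5 (reported 3). Those lower in m90 than atprmt5 numbered 0 (reported 1). In s215, 16 of 34 members were higher than in wild type (reported 24), and 17 were higher than in atprmt5 (reported 25). Both s215 counts are among those taken above as keeping their value, although fewer members passed 2-fold. Lower in s215 were 3 against wild type (reported 3) and 2 against atprmt5 (reported 3). The s215 medians were 0.96 against wild type and 1.05 against atprmt5. With a pseudocount of 0.1, 10 members were higher and 2 lower in m90 than wild type (reported 4 and 0), 4 were lower in m90 than atprmt5 (reported 1), and the s215 medians were 3.53 and 2.82. With the limit set without s215, 10 and 11 of 20 members were higher in s215, at medians of 1.01 and 1.09. The s215 median against wild type was 2.09 at a mean of at least 1 RPKM, 1.56 with no limit and 1.56 without members over 80% identical to another. Setting the median ratio of all loci to 0, a shift of 0.16 and 0.14, gave s215 medians of 1.99 and 1.73. Among 510 single ratios recomputed, 89 fell outside the range spanned by the reported log2 ratio and the counting interval, 78 of them with the pseudocount of 5, and no ratio past 2-fold changed sign.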
